A study of Mus musculus with 6 samples.

Results

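Zinc, iron and metallothionein genes were followed in mouse ooplasts and blastocysts. They were chosen by name on the array: every Slc30a and Slc39a gene, Mt1 to Mt4, Mtf1, Mtf2, Slc11a1, Slc11a2, Slc40a1, Tfrc, Fth1, Ftl1, Ireb2 and Aco1. The rule gave 38 genes with 62 probes, of 27600 gene names and 41174 probes on the array. They were 4 metallothionein genes, 2 genes of the metal response, 10 Slc30a, 14 Slc39a and 8 iron genes. The samples were 6 single-colour Agilent arrays of B6C3 F1 mice. Young and climacteric (the labels' word for the older animals) ooplasts had 1 array each, and young and climacteric blastocysts had 2 arrays each. The series concerns reprogramming of somatic nuclei by oocytes of aging females. An ooplast is an oocyte without its chromosomes, and a growing oocyte lays down the RNA store on which the early embryo depends. No genotype, treatment or exact age is given in the labels used here, which also do not say how many animals or cells were pooled, or whether the blastocysts came from nuclear transfer or fertilization.

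Slc39a (ZIP) proteins carry zinc into the cytosol from outside the cell or from organelles, and Slc30a (ZnT) proteins carry it out of the cytosol. Metallothioneins are small cysteine-rich proteins that bind zinc and copper, and the zinc-sensing transcription factor encoded by Mtf1 drives Mt1, Mt2 and Slc30a1. Iron enters cells bound to transferrin through the receptor Tfrc, leaves endosomes through Slc11a2, is stored in ferritin (Fth1 and Ftl1) and is exported by Slc40a1, while Aco1 and Ireb2 encode the iron regulatory proteins that bind the mRNAs of several of these genes. The mouse oocyte takes up zinc as it matures and releases it as zinc sparks when it is activated.

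Levels below are log2 signal minus the 75th percentile of the same array, and differences are on that log2 scale. The level of 1 probe is not compared with that of another. Of the spots, 42.2% and 42.4% were well above background on the ooplast arrays and 49.9% to 57.3% on the blastocyst arrays. Signals were dimmer in ooplasts, whose 75th percentiles were 236 and 238 units, than in blastocysts (721 to 1111). A probe at background therefore sat lower after scaling in blastocysts. The 3 probes of Slc39a8, above background on no array, stood at -4.31 to -4.12 in ooplasts and at -6.04 to -5.19 in blastocysts. All 8 oocyte markers fell in blastocysts and all 6 trophectoderm markers rose, beside 39.0% lower and 35.5% higher over all genes tested. Of 6 inner cell mass markers 4 rose and Gata4 fell (-1.68 ± 0.44, adjusted p = 0.0126 by limma), while Pou5f1 did not pass (0.25 ± 0.39, adjusted p = 0.575), and 4 of the 6 were above background on each ooplast array. Of 6 cumulus and granulosa markers tested 4 were lower in blastocysts and 0 higher. Foxl2 (-0.42 ± 0.29, adjusted p = 0.227 by limma) and Ptx3 (-0.51 ± 0.26, adjusted p = 0.12) did not pass. Fshr, Has2 and Kitl were above background on neither ooplast array. Has2 was above it only in young blastocysts (-1.97 and -2.33). Cyp19a1, the granulosa aromatase, had the largest difference of the 6 and stood at 6.30 and 6.22 in ooplasts and at -1.55 to -0.89 in blastocysts. The list's summed level, as signal over the 75th percentile, was 436 and 91.9 in ooplasts against 4.37 to 6.88 in blastocysts, and its part in the stage differences below was not tested. Some markers above were tested because they were above background on every array of 1 stage only, which favours a call towards that stage. Through ooplasts alone these were Oosp1, Bmp15, Zp2, Mos, Gata4 and Tnfaip6. Through blastocysts alone they were Cdx2, Tead4, Eomes, Nanog, Sox2 and Foxl2. In bulk samples a change in the number of cells and a change in RNA per cell cannot be told apart.

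The first comparison asked how these genes differ between the ooplast and the blastocyst. The metallothioneins Mt1 and Mt2 and the zinc importers Slc39a14 and Slc39a4 were far higher in blastocysts, and the zinc importer gene Slc39a10 was far lower. A second Mt1 probe rose by less (1.89), and Slc39a14 was at background in both ooplasts. The brightest probes of Slc39a1 and Mtf2 were also far higher, but a second Slc39a1 probe fell (-1.02) and the other Mtf2 probes differed by 0.59 to 1.91. Of the 38 genes, 30 could be tested, and 18 were higher and 4 lower in blastocysts (limma, Benjamini-Hochberg adjusted over all 15606 genes tested, threshold 0.05). Over all genes 35.5% were higher and 39.0% lower, 74.5% in either direction. The median difference was 1.56 over the 30 genes and -0.26 over all genes. A gene entered if all arrays of the ooplasts, or all of the blastocysts, measured it well above background. Of the 30, 6 entered through the blastocyst arrays alone and 5 of these were called higher, which the entry rule favours; 1 entered through the ooplast arrays alone and was called lower. Among the 23 on all 6 arrays, 13 were higher, 3 lower and 7 not past the threshold, with a median of 1.13. The shares and median over all genes above include genes that entered through 1 stage alone. They are not given for genes on all 6 arrays, so the counts among the 23 have no matching share. Both ooplasts and the replicates 1 of the blastocysts shared a slide, and the replicates 2 lay on another. With slide as a block 21 of the 22 calls passed, all but Mtf1, and with slide 1 alone 20 passed, all but Mtf1 and Slc30a1.

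**Figure D1:**
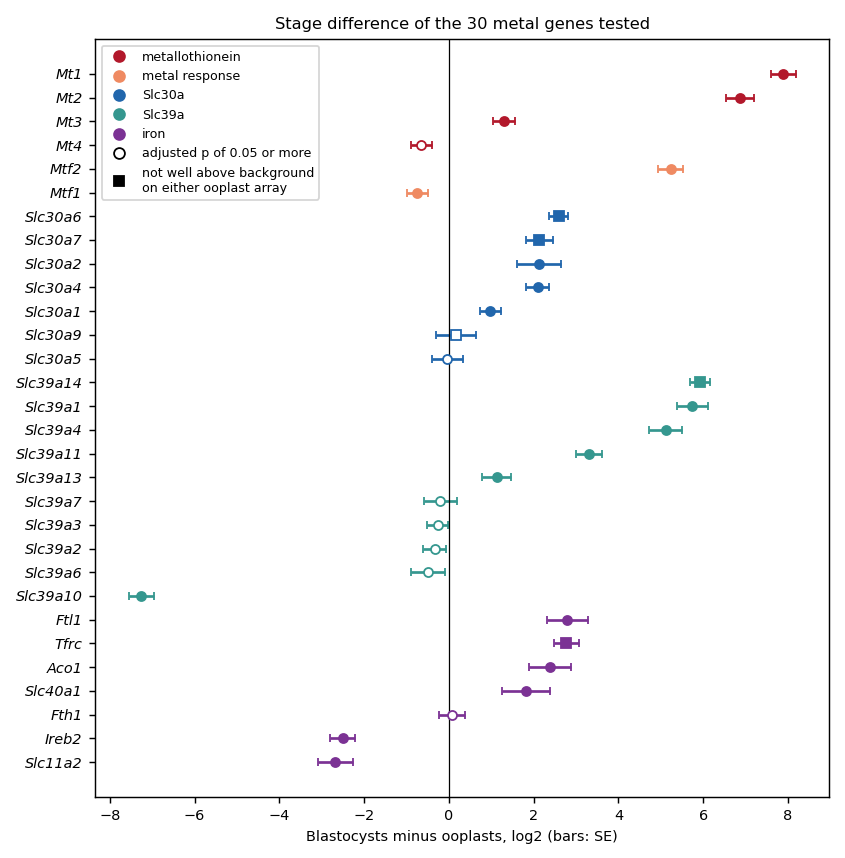
Difference between blastocysts and ooplasts (horizontal axis, log2, bars are the SE of limma) for the 30 zinc, iron and metallothionein genes tested, grouped by family. Filled points passed an adjusted p of 0.05, and squares were too dim on both ooplast arrays to be called above background, so their position depends on background; Mt1 lies farthest right at 7.89 and Slc39a10 farthest left at -7.26.

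The 4 metallothionein genes lie side by side on chromosome 8, their probes within 41932 bases of mm8, the build of the files. Mt1 stood at 1.13 in young and 0.36 in climacteric ooplasts, at 8.87 and 8.45 in the young blastocysts and at 8.50 and 8.74 in the climacteric ones. Every blastocyst array was far above both ooplast arrays. The difference was 7.89 ± 0.30 (SE; 238-fold, adjusted p = 9.67e-06 by limma), and the means were 8.64 ± 0.20 (SD, n = 4) for blastocysts and 0.75 ± 0.54 (SD, n = 2) for ooplasts. The probe (chromosome 8, 97069240 to 97069299) is printed 10 times on the array, and the spots of 1 array had an SD of 0.04 to 0.16. A second Mt1 probe, at 97069073 to 97069132, rose by less (1.89 ± 0.31, adjusted p = 0.00158 where each probe was tested on its own). Mt2 stood at 2.97 and 1.96 in young and climacteric ooplasts, at 9.55 and 9.08 in young and at 9.21 and 9.45 in climacteric blastocysts. It too was far higher on every blastocyst array, by 6.86 ± 0.33 (116-fold, adjusted p = 1.49e-05). Its spot was saturated on 2 blastocyst arrays, young replicate 2 and climacteric replicate 1, so the true level there may be higher.

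The other metallothioneins, Mt3 (known from brain) and Mt4 (known from stratified epithelium), differed less between stages. Mt3 stood at 0.10 and 0.41 in young and climacteric ooplasts, at 1.33 and 1.81 in young and at 1.50 and 1.61 in climacteric blastocysts. The stages did not overlap and Mt3 rose by 1.30 ± 0.27 (adjusted p = 0.0048). Mt4 stood at 0.12 and 0.46 in ooplasts, at -0.50 and -0.28 in young and at -0.25 and -0.39 in climacteric blastocysts. It lay just short of the threshold (-0.65 ± 0.25, adjusted p = 0.0505), and its second probe gave -0.87. It passed after quantile normalization (adjusted p = 0.0497), with another percentile (0.0198), in the authors' values (0.0468) and among genes above background on all arrays (0.0402).

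Promoter windows from RefSeq (GRCm38.p6, 250 bases before to 50 after the annotated start) were searched on both strands for the core of the metal response element bound by the Mtf1 protein, spelled TGCACNC or TGCGCNC, overlapping matches counted. Of 32851 windows of all genes 25.7% held at least 1 match, 1.97% at least 3 and 0.517% at least 4. Mt2 held 4 matches and Mt1 3, while Mt3 and Mt4 held 1 each and Slc30a1 2. Windows were found for 32 of the 38 genes, 40 windows in all, of which 19 (47.5%) held at least 1 match and 4 held at least 3: those of Mt1, Mt2, Slc30a4 and Slc30a10. Slc30a10 was above background on no array. Slc39a1, whose brighter probe rose and whose second probe fell, held no match. Slc30a8, Slc39a4, Slc39a6, Slc39a14, Slc11a2 and Slc40a1 had no window. Whether matches bear on the levels was not tested. The stretches of Mt1, Mt2 and Slc30a1, the known targets of Mtf1, are shown 5′ to 3′ on the plus strand with the matches in capitals (a match on the minus strand reads as its reverse complement), from 100 bases before the start to base 27 after it for Mt1 (chr8:94178989-94179115), from 240 before to 11 after for Mt2 (chr8:94172378-94172628), and for Slc30a1 the 100 bases before (chr1:191906681-191906780), which hold 1 of its 2 matches; the other, at base 31 after the start, is not shown. A match is a description of these letters, not a bound site.
Mt1: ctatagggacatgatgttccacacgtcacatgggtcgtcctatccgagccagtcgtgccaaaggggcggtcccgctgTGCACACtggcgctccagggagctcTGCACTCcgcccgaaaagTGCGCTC
Mt2: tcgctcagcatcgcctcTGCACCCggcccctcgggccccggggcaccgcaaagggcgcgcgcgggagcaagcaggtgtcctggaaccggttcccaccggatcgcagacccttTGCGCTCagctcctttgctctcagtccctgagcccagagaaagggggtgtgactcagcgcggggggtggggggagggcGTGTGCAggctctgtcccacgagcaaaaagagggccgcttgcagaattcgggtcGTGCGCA
Slc30a1: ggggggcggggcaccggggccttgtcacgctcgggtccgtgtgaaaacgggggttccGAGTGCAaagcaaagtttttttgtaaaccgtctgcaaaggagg

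Mtf1 itself gave unlike results by probe. Where each probe was tested on its own, 1 rose (0.86, adjusted p = 0.0291 by limma). Another, tested through the ooplast arrays alone, fell (-3.02, adjusted p = 0.000335). The probe that stands for the gene differed by less. It stood at 2.36 and 2.32 in young and climacteric ooplasts, at 1.86 and 1.77 in young and at 1.35 and 1.39 in climacteric blastocysts. The stages did not overlap, and the difference was -0.75 ± 0.25 (adjusted p = 0.0307). That call was lost without any 1 of 5 of the 6 arrays, all but young blastocyst replicate 1 (for example -0.54, adjusted p = 0.213, without the climacteric ooplast array), and its other probes gave 0.86 and -3.02. Mtf2, which encodes a Polycomb-associated protein and shares only its name with the zinc sensor, stood at 2.53 and 2.05 in ooplasts, at 7.78 and 7.50 in young and at 7.10 and 7.71 in climacteric blastocysts. It rose by 5.23 ± 0.29 (37.6-fold, adjusted p = 1.96e-05) at the probe on chromosome 5 from 108349207 to 108349266. The other Mtf2 probes gave smaller differences of 1.91, 0.96 and 0.59, of which the first passed.

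**Figure D2:**
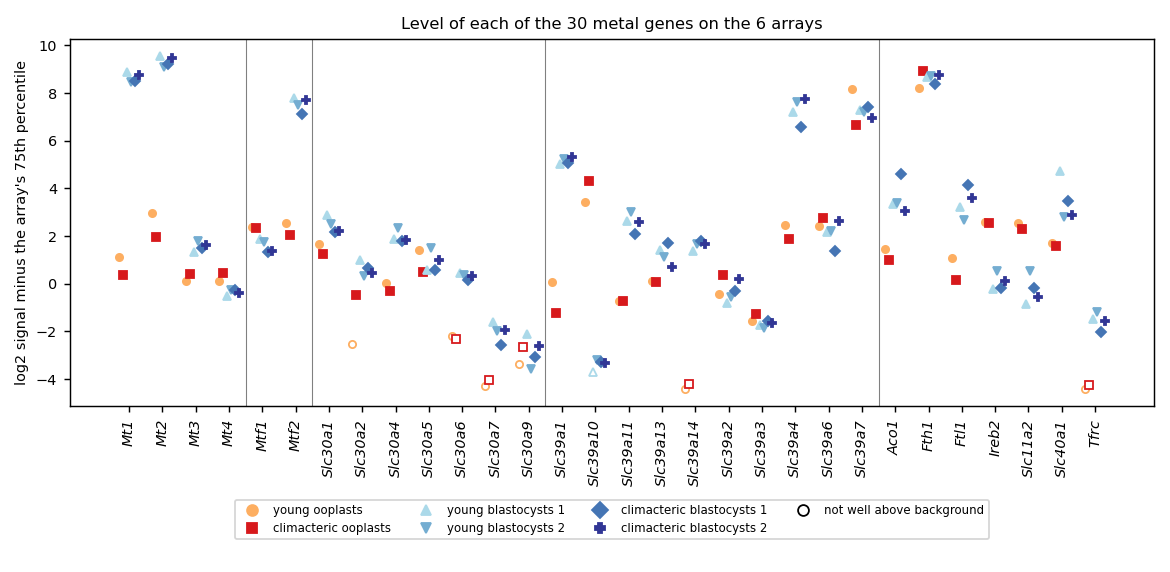
Level (vertical axis, log2 signal minus the 75th percentile of the array) of the 30 genes tested on each of the 6 arrays, 1 point per array, with open points not well above background. Blastocyst points of Mt1 (8.45 to 8.87) and Mt2 (9.08 to 9.55) lie far above the ooplast points, those of Slc39a10 far below, and those of Fth1 and Slc39a7 among them.

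Among the Slc39a importers 10 of 14 genes were tested, 5 higher and 1 lower in blastocysts, beside 35.5% and 39.0% over all genes. Slc39a14 entered through the blastocyst arrays alone and Slc39a10 through the ooplast arrays alone. Slc39a14, a plasma membrane importer of zinc that also carries iron and manganese, was at background in both ooplasts (-4.40 and -4.21). It stood at 1.38 and 1.65 in young and at 1.81 and 1.68 in climacteric blastocysts. It was at least 13.6-fold higher there, and its second probe at least 6.57-fold. The measured difference, which depends on background in ooplasts, was 5.93 ± 0.24 (adjusted p = 1.09e-05 by limma, means 1.63 and -4.30). After normexp background correction the difference was 3.07 (adjusted p = 2.1e-05 by limma), less than the 13.6-fold bound. A bound of this kind sets the mean of the brighter stage against a level for each dim array. That level was the lowest that was well above background there, or the measured level where this was higher. Each such bound holds for the main processing only, and as for Slc39a14 the difference after normexp can be smaller. Slc39a1, a widely expressed plasma membrane importer, stood at 0.07 and -1.23 in ooplasts, at 5.02 and 5.24 in young and at 5.05 and 5.33 in climacteric blastocysts. The blastocyst arrays lay close together, well above the ooplasts, and Slc39a1 rose by 5.74 ± 0.37 (53.4-fold, adjusted p = 3.07e-05; 5.06 without the climacteric and 6.42 without the young ooplast array). A second Slc39a1 probe (chromosome 3, 90338379 to 90338438, against 90339300 to 90339359) fell (-1.02 ± 0.32, adjusted p = 0.0251), so the 2 probes disagree in sign.

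Slc39a4, the importer that takes up dietary zinc in the gut, was measured on all arrays. It stood at 2.47 and 1.89 in ooplasts, at 7.19 and 7.64 in young and at 6.59 and 7.76 in climacteric blastocysts. The stages were far apart, and it rose by 5.11 ± 0.39 (34.6-fold, adjusted p = 5.97e-05). Slc39a11 stood at -0.74 and -0.72 in ooplasts, at 2.61 and 3.01 in young and at 2.07 and 2.59 in climacteric blastocysts. It rose by 3.30 ± 0.30 (9.82-fold, adjusted p = 0.000121). Slc39a13, an importer of the secretory pathway, rose by 1.13 ± 0.34 (adjusted p = 0.0233), a call lost without either ooplast array (adjusted p = 0.111 and 0.106) or young blastocyst replicate 1 (0.0548), and its second probe gave 0.20.

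Slc39a10 went the other way. This plasma membrane importer stood at 3.42 in young and 4.32 in climacteric ooplasts, at -3.71 and -3.21 in young and at -3.30 and -3.33 in climacteric blastocysts. It fell by 7.26 on the log2 scale (SE 0.30, 153-fold lower, adjusted p = 1.1e-05; probe on chromosome 1, 46753044 to 46753103). Blastocyst arrays other than young replicate 1 still measured it above background, near the lowest level so called (-3.97 to -3.45), so the size of the fall depends on background, and it was -7.46 to -5.64 across the scalings and background corrections. The Golgi and endoplasmic reticulum importer Slc39a7 (-0.20 ± 0.39), the Slc39a10 relative Slc39a6 (-0.49 ± 0.40), Slc39a2 (-0.34 ± 0.27) and Slc39a3 (-0.27 ± 0.24; -0.68 and adjusted p = 0.0172 after normexp) did not pass. Slc39a7 stood at 8.18 and 6.64 in the young and climacteric ooplasts, on either side of the blastocysts (6.94 to 7.40).

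Among the Slc30a exporters 7 of 10 genes were tested, 5 higher and 0 lower in blastocysts, beside 35.5% and 39.0% over all genes. Of the 5, Slc30a2, Slc30a6 and Slc30a7 entered through the blastocyst arrays alone, which favours a higher call. Slc30a4, an exporter of intracellular vesicles, stood at 0.03 and -0.29 in ooplasts, at 1.86 and 2.33 in young and at 1.81 and 1.83 in climacteric blastocysts. It rose by 2.09 ± 0.26 (4.25-fold, adjusted p = 0.000477). Slc30a6, of the Golgi, was above background on no ooplast array (-2.21 and -2.34). It stood at 0.43 and 0.37 in young and at 0.16 and 0.31 in climacteric blastocysts, at least 5.42-fold higher. The measured difference, which depends on background in ooplasts, was 2.59 ± 0.23 (adjusted p = 0.000118 by limma). After normexp the difference was 1.48 (adjusted p = 0.000451 by limma), less than the 5.42-fold bound. Slc30a7, also of the Golgi, was above background on no ooplast array (-4.29 and -4.06) and stood at -1.62 and -1.99 in young and at -2.59 and -1.96 in climacteric blastocysts. It was at least 1.07-fold higher. The adjusted p of 0.00123 (limma) belongs to the measured difference of 2.13 ± 0.32, not to that bound. This difference depends on background in ooplasts, and after normexp background correction it was -0.10. The gene table assigns 3 further probes to Slc30a7 under a clone name. Of these, 2 were above background on the blastocyst arrays alone (-0.19 to 0.80 there). The other was above background on 1 array only. It stood at -1.74 in young and -4.18 in climacteric ooplasts, and at -6.27 to -4.64 in blastocysts.

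Slc30a2 stood at -2.55 in young ooplasts, not well above background, and at -0.49 in climacteric ones, at 0.99 and 0.34 in young and at 0.67 and 0.46 in climacteric blastocysts. It rose by 2.13 ± 0.52 (adjusted p = 0.00968); without the young ooplast array this was 1.05 and not past the threshold (adjusted p = 0.0765), and without the climacteric one 3.21. Slc30a1, the exporter of the plasma membrane, stood at 1.67 and 1.26 in ooplasts and at 2.18 to 2.88 in blastocysts. It rose by 0.98 ± 0.25 (1.97-fold, adjusted p = 0.0115), a call lost without either ooplast array (adjusted p = 0.0553 and 0.0709) and within slide 1 (1.07, adjusted p = 0.0608). A second Slc30a1 probe was above background on no ooplast array (-3.56 and -4.31) and stood at -1.98 to -0.30 in blastocysts, at least 1.82-fold higher. Its measured difference, which depends on background in ooplasts, was 2.66 ± 0.45. The adjusted p was 0.00199 by limma where each probe was tested on its own. Slc30a5 (-0.04 ± 0.36) did not pass. Slc30a9 was above background on no ooplast array (-3.36 and -2.65) and stood at -2.10 and -3.60 in young and at -3.06 and -2.63 in climacteric blastocysts, where the stages overlapped (0.16 ± 0.47, adjusted p = 0.77).

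The iron genes were mixed, with 7 of 8 tested, 4 higher and 2 lower, beside 35.5% and 39.0% over all genes. Tfrc entered through the blastocyst arrays alone. Tfrc, the transferrin receptor, has 1 probe printed 10 times, which was at background in both ooplasts (-4.44 and -4.24). It stood at -1.49 and -1.19 in young and at -2.03 and -1.57 in climacteric blastocysts, at least 1.49-fold higher, with an SD among spots of 0.08 to 0.12. The measured difference, which depends on background in ooplasts, was 2.77 ± 0.30 (adjusted p = 0.000252 by limma). After normexp the difference was 0.42 and did not pass (adjusted p = 0.128). Ftl1, the ferritin light chain, stood at 1.09 and 0.15 in ooplasts, at 3.21 and 2.67 in young and at 4.14 and 3.60 in climacteric blastocysts. It rose by 2.79 ± 0.48 (6.90-fold, adjusted p = 0.00215; 3.72 without the young and 1.85 without the climacteric ooplast array). Fth1, the ferritin heavy chain, did not differ past the threshold: 8.21 and 8.93 in ooplasts, 8.68 and 8.71 in young and 8.39 and 8.77 in climacteric blastocysts (0.07 ± 0.30, adjusted p = 0.839). It passed after quantile normalization (0.90, adjusted p = 0.0499) and in the authors' values (0.99, adjusted p = 0.0369). Ferritin genes have near-identical pseudogenes, and whether the probes bind those transcripts was not tested.

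Slc40a1, the iron exporter ferroportin, stood at 1.72 and 1.57 in ooplasts, at 4.74 and 2.78 in young and at 3.47 and 2.87 in climacteric blastocysts. All blastocyst arrays were above the ooplasts, with young replicate 1 highest. The rise of 1.82 ± 0.56 passed (adjusted p = 0.024), but not without the young (1.61, adjusted p = 0.145) or climacteric ooplast array (2.03, 0.0879) or climacteric blastocyst replicate 1 (1.72, 0.0618). Aco1, iron regulatory protein 1 and also the cytosolic aconitase, stood at 1.46 and 0.98 in ooplasts, at 3.36 and 3.37 in young and at 4.62 and 3.06 in climacteric blastocysts. It rose by 2.39 ± 0.49 (adjusted p = 0.0046), and without the climacteric ooplast array by 1.91 (adjusted p = 0.0576). A second Aco1 probe, above background in blastocysts alone, gave 0.21. Ireb2, iron regulatory protein 2, stood at 2.60 and 2.56 in ooplasts, at -0.22 and 0.53 in young and at -0.16 and 0.11 in climacteric blastocysts. It was lower on every blastocyst array (-2.51 ± 0.30, 5.71-fold, adjusted p = 0.000436), and a second probe gave -3.78.

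Slc11a2, the divalent metal transporter DMT1, gave opposite results by probe. The probe with the highest mean (chromosome 15, 100215936 to 100215995) stood at 2.53 and 2.30 in ooplasts, at -0.85 and 0.52 in young and at -0.16 and -0.57 in climacteric blastocysts. It fell (-2.68 ± 0.42, adjusted p = 0.00145). The probe at 100220950 to 100221009 was above background on no ooplast array (-4.24 and -4.05) and stood at 1.18 to 1.48 in blastocysts, at least 11.0-fold higher. Its measured difference, which depends on background in ooplasts, was 5.46 ± 0.26 (adjusted p = 1.42e-05 by limma where each probe was tested on its own). The probe at 100238119 to 100238178 fell (-1.24 ± 0.31, adjusted p = 0.01). Slc11a1, the phagosomal metal transporter of macrophages, was not tested by stage. It was above background on 3 of the 4 blastocyst arrays (-2.65 in young replicate 2, -2.17 and -1.63 in the climacteric ones) and not in young replicate 1 (-5.51) or in ooplasts (-4.43 and -2.40).

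**Figure D3:**
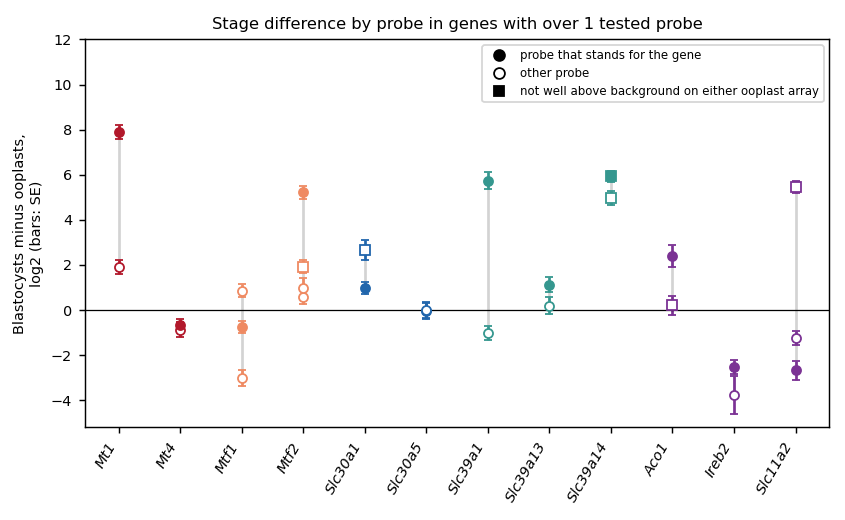
Difference between blastocysts and ooplasts (vertical axis, log2, bars are the SE) of each tested probe in the 12 genes that had over 1, with the probe that stands for the gene filled and squares at background in both ooplasts. Probes of Slc11a2 (5.46 against -2.68), Slc39a1 (5.74 against -1.02) and Mtf1 (0.86 against -3.02) lie on opposite sides of 0.

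The remaining 8 genes did not enter the stage comparison. Slc30a8, Slc30a10, Slc39a8, Slc39a9 and Slc39a12 were above background on no array. Slc30a3 was so on the young ooplast array (-1.31) and climacteric blastocyst replicate 1 (-3.65). Slc39a5 was so on the climacteric ooplast array alone (1.06, against -2.82 in young ooplasts and -5.88 to -4.86 in blastocysts). Slc11a1 is described above.

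Further lists of metal genes were drawn up with earlier results of these data known, and their counts stand beside 35.5% higher and 39.0% lower over all genes. Of 36 iron and heme handling genes tested 15 were higher and 13 lower in blastocysts, near those shares, with a median of 0.15. Flvcr2, a membrane transporter, was at least 389-fold higher and Blvrb, a biliverdin reductase, at least 24.7-fold. Bmp6, a ligand that induces hepcidin in liver, was at least 14.3-fold lower. Of 11 copper handling genes 6 were higher and 2 lower, with a median of 2.01: Cox17 (6.49 ± 0.31), Atox1 (2.89 ± 0.24) and Sco1 (2.71 ± 0.25), which handle copper for cytochrome oxidase or as chaperones, rose, and the copper transporter gene Slc31a2 fell (-3.47 ± 0.24). Of 6 other zinc genes 2 were higher and 4 lower, with a median of -1.05. Fbxo43, which encodes the zinc-binding inhibitor Emi2 of the meiotic exit, was at least 59.3-fold lower in blastocysts, and Tmem163, a zinc transporter of vesicles, at least 8.44-fold. Tmc6 (3.07 ± 0.34) and Trpm7, a channel that passes zinc (2.83 ± 0.37), rose. Of the genes named from these lists, Flvcr2, Blvrb and Sco1 entered through the blastocyst arrays alone, which favours a higher call. Bmp6, Fbxo43 and Tmem163 entered through the ooplast arrays alone, which favours a lower call. Other genes counted in these lists also entered through 1 stage alone.

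The next comparison asked whether maternal age changed these genes in blastocysts. No gene passed: 0 of 31 tested by limma at an adjusted p of 0.05, beside 0 of 15973 over all genes (0%). At an unadjusted p under 0.05 the count was 1 of 31, beside 864 of 15973 (5.41%). That gene was Ftl1, at 2.94 ± 0.38 in young and 3.87 ± 0.38 (SD, n = 2) in climacteric blastocysts, a difference of 0.93 ± 0.36 (adjusted p = 0.914) whose groups did not overlap. Mt1 (-0.04 ± 0.31) and Mt2 (0.02 ± 0.32) were close to 0, and so were Slc39a1 (0.06 ± 0.29) and Slc39a7 (-0.07 ± 0.31), all with adjusted p = 1. The Mt2 spot was saturated on 1 array of each age, so its difference is not fully measured. The largest difference was that of Slc11a1 (2.18 ± 0.94, adjusted p = 0.978), where young replicate 1 was at background. Of 12 macrophage markers on the array 5 and 4 were above background in young replicates 1 and 2 and 7 in each climacteric blastocyst array. Their summed level was 38.3 in climacteric replicate 1, mainly from Lyz2, and 3.06 to 3.38 on the other 3 arrays; their part in the Slc11a1 values was not tested.

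The last comparison asked the same of ooplasts, with 1 array per age and so no test and no replicate check. Of 24 genes above background on both arrays 3 were at least 2-fold lower in climacteric ooplasts and 0 at least 2-fold higher, beside 9.86% and 7.36% of 12290 genes. The median was -0.19 over the 24 genes and 0.15 over all genes. Slc39a7 was 2.92-fold lower (8.18 against 6.64), Slc39a1 2.46-fold (0.07 against -1.23) and Mt2 2.01-fold (2.97 against 1.96). Their differences were -1.55 to -0.81, -1.52 to -0.76 and -1.01 to -0.83 across the scalings, always below 0, but after normexp only 1 gene was past 2-fold lower. After quantile normalization and in the authors' values the balance turned, to 1 gene lower and 2 higher: Slc39a10 (1.09 and 1.06) and Fth1 (1.08 in both). A second Slc39a1 probe was 1.41-fold higher. Probes other than those standing for their genes also passed 2-fold: Mtf2 (-1.84 and -1.26) and Slc30a5 (-1.17) lower, and Slc11a2 (1.19) higher. The probes standing for these genes gave -0.48, -0.90 and -0.23. Mt1 (-0.77) and Ftl1 (-0.95) were lower by less than 2-fold, and Slc39a10 (0.91), Slc39a2 (0.81) and Fth1 (0.71) higher by less. In the climacteric array alone Slc39a5 was at least 9.93-fold and Slc30a2 at least 3.38-fold above the young one, and in the young array alone Slc30a3 was at least 1.57-fold above the climacteric one. Beside these values, 8 of 12 macrophage markers were above background on the climacteric and 4 on the young ooplast array (summed level 41.6 against 3.84). Of 9 cumulus and granulosa markers 6 and 5 were above background. Their summed level was 91.9 against 436, a gap that came mainly from Inha (2.80 against 8.44). Tnfaip6 was also lower in the climacteric array (-1.03 against 1.15), and Cyp19a1 was alike (6.22 against 6.30). Amh (2.54 against 2.12) and Ptx3 (1.84 against 1.34) were higher in the climacteric array. The median difference over the 5 markers on both arrays was -0.08. Kitl, C1qa and Itgam were above background on no array. Their part in these differences was not tested.

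**Figure D4:**
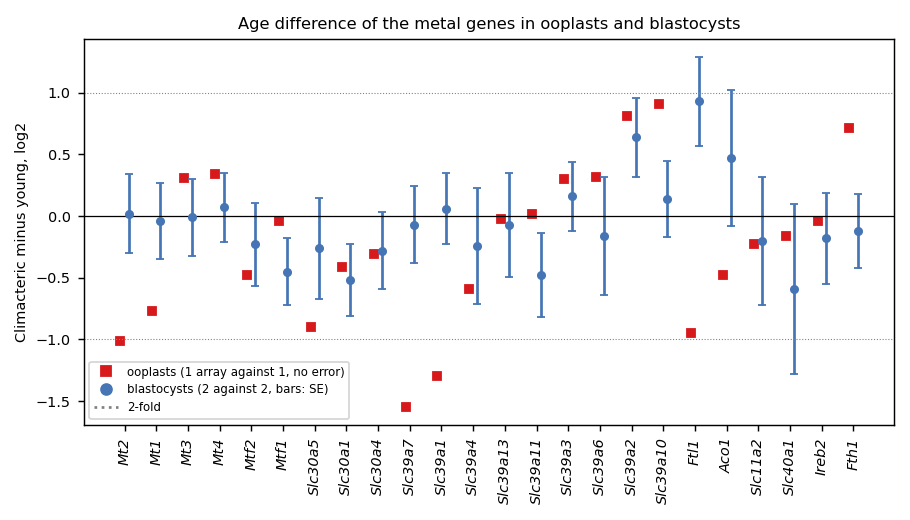
Climacteric minus young (vertical axis, log2) for the 24 genes above background on both ooplast arrays, in ooplasts (squares, 1 array against 1, no error) and blastocysts (circles, 2 against 2, bars are the SE), with dotted lines at 2-fold. In ooplasts Mt2, Slc39a1 and Slc39a7 lie below the lower line (-1.01, -1.30 and -1.55), while the same genes in blastocysts lie at 0.02, 0.06 and -0.07.

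The difference between the age effects of the 2 stages was tested as an interaction, where the lone ooplast arrays were taken to vary as the blastocyst replicates did. No gene of the 30 passed (limma, adjusted p of at least 0.37), beside 133 of 15606 genes (0.852%) over all. At an unadjusted p under 0.05 there were 4 of the 30, beside 1219 of 15606 (7.81%). For Ftl1, lower in climacteric ooplasts and higher in climacteric blastocysts, the interaction was 1.87 ± 0.63 (adjusted p = 0.498), for Slc39a7 1.48 ± 0.54 (0.571), for Slc39a1 1.36 ± 0.51 (0.598) and for Slc30a2 -2.16 ± 0.60 (0.37). The Slc30a2 value rests on a young ooplast level (-2.55) that was not well above background. That of Slc39a1 is from 1 probe, and its second probe was 1.41-fold higher in climacteric ooplasts.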

How the data were processed

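Total RNA of 6 samples was amplified, labelled with Cy3 and hybridised to 1 array each, per the labels' protocols. The deposited array files hold spot intensity values, background-subtracted and detrended per the file headers, with positions on mm8; the submitters' processing notes name Agilent Feature Extraction 9.5. The value table that the authors deposited is on the log2 scale, with a median of 6.25 on each array, which differed by at most 5e-07 from a quantile normalization of those intensities; it served as an alternative.

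Here the log2 intensity minus the 75th percentile of each array was used. Outlier spots were left out, spots of a probe were averaged, and the probe with the highest mean stood for its gene. limma 3.58.1 (R 4.3.3) was used with Benjamini-Hochberg adjustment over all genes tested: stage with age as a covariate (6 arrays), age within blastocysts (2 against 2) and their interaction, after tests on simulated data. The series design calls the replicates biological but names no animals. The p-values describe only how these arrays scatter, which may be technical, and the number of arrays limits the precision. Genes and lists were chosen with earlier results of these data known. Every array's value is given for the metallothionein, metal response and iron genes and for the Slc30a and Slc39a genes that differed by at least 2 (log2) between stages or were at background in 1 stage. From each further list the 4 genes with the largest test statistics are named, except 1 that is not reported here. Probes were named by RefSeq accession or symbol (33098 of 41174) or by the file's own name (8076). No mm8 annotation was used here, so exon and UTR are not given. Alternatives were other scalings, background correction, filters, each probe on its own, slide, replicate block and leaving out each array.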

Additional observations from a re-analysis of the deposited data

How the results depend on the processing

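Across the other scalings, the background correction and the filters the number of genes called higher in blastocysts (18) was 13 to 19, and 24 where each probe was tested on its own. The number lower (4) became 10 with no filter on dim probes and 8 for single probes. Leaving out each array in turn gave 14 to 18 higher and 3 to 4 lower, and 0 changed with age in blastocysts. That 0 says nothing of stability: no gene of any kind passed with every array, and without 1 array the lone sample is assumed to vary like the other age's pair. Genes at least 2-fold higher in climacteric ooplasts (0) became 2 after quantile normalization and in the authors' values, 1 with the percentile over probes above background on all arrays, 3 with no filter and 1 for single probes. Those at least 2-fold lower (3) became 1 after quantile normalization, normexp and in the authors' values, and 6 for single probes. Slc30a7 reversed to -0.102 after normexp (adjusted p = 0.741 by limma); it was at background in ooplasts, and the cause was not tested. Of the single-gene values 798 kept their direction and side of the threshold or moved within the spread, 21 lost the threshold, 7 gained it and 76 moved or changed sign without a call. Other scalings moved the median stage difference of all genes from -0.26 to between -0.454 and -0.136, and that of ooplast age from 0.15 to between 0.0982 and 0.299. With the replicate number as a block, 0 genes changed with age in blastocysts, as without it; same-numbered arrays share a slide, and the deviations of the 2 pairs correlated at 0.167. The interaction was not refitted with arrays left out.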
